A study of Mus musculus with 8 samples.

Results

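Cathepsins are proteases that work mainly inside lysosomes, the acidic compartments in which cells break down proteins. They are made as inactive precursors, carried to the lysosome in large part by sorting receptors, and switched on there by removal of a propeptide at low pH. Macrophages use them to degrade engulfed material and to cut antigens for presentation, and osteoclasts, which arise from the same lineage, secrete cathepsin K to dissolve bone matrix. The 9 genes described here are Ctsa, Ctsb, Ctsc, Ctsd, Ctsh, Ctsk, Ctsl, Ctss and Ctsz, chosen by name, out of 55450 genes in the deposited count table. All 9 were matched by gene identifier to release 21 of the GENCODE mouse annotation, and all 9 passed the filter on low counts.

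The cells were RAW264.7, a mouse macrophage-like tumour line, carrying an shRNA against Dis3l2 (shDis3l2) or a non-silencing control shRNA (shNS). Dis3l2 encodes an exonuclease that removes RNAs tagged with uridines at their end. Either line was kept for 4 days in medium with doxycycline at 1 µg/mL, a drug commonly used to induce an shRNA, or in medium without the drug. There were 3 libraries of total RNA for each line with the drug and 1 for each line without it. The labels give no drug-free replicate, do not state how the lines were derived or whether each is 1 clone, and do not state whether the replicates were separate cultures, so every p-value reflects only how much these libraries varied, and that variation may be technical.

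Library totals ran from 30341823 to 45557804 counts. Levels are given below as CPM, counts scaled to a common total, after normalization by edgeR's TMM method. Dis3l2 itself stood at 33.0, 28.7 and 22.0 CPM in the shNS libraries with the drug and at 12.0, 13.5 and 14.9 CPM in the shDis3l2 libraries, a log2 fold change of -1.05 (SE 0.19, edgeR adjusted p = 0.0216). Leaving out replicate 1, 2 or 3 of shDis3l2 took this past the threshold of 0.05, to adjusted p-values of 0.0814, 0.112 and 0.0776. Without the drug the levels were 29.7 CPM in shNS and 28.6 CPM in shDis3l2. One library stood apart from its group. Replicate 2 of shNS with the drug differed from the drug-free shNS library by 0.33 (root mean square of the log2(CPM + 1) differences over 15250 genes), but from replicates 1 and 3 of its own group by 0.70 and 0.69. Results that rest on it are given with and without it. All 10 macrophage markers looked at were detected in these cells. Between the lines with the drug 2 of them, Adgre1 and Mrc1, were lower in shDis3l2 (log2 fold changes of -2.70 and -3.19, edgeR adjusted p = 0.0368 and 0.0244), 0 were called higher, and 6 of the 10 had a positive log2 fold change. Markers of epithelial and erythroid cells were at 0 in all 8 libraries. Those of fibroblasts and of T and B cells summed to at most 0.0591 CPM in any library. With the drug, neutrophil granule markers summed to between 0.20 and 1.38 CPM in shNS and between 0.05 and 0.12 CPM in shDis3l2.

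The 9 genes fall into 3 kinds of enzyme. Ctsa encodes a serine carboxypeptidase that also shields beta-galactosidase and neuraminidase 1 in the lysosome. Ctsd encodes an aspartic endopeptidase. The other 7 encode cysteine proteases of the papain family, of which cathepsins L, S and K are mainly endopeptidases, cathepsin B also removes dipeptides from the carboxyl end, cathepsin C removes dipeptides from the amino end, cathepsin H is mainly an aminopeptidase, and cathepsin Z removes single residues from the carboxyl end. Windows around the catalytic residue were found by searching each translated sequence for a short residue pattern, set beforehand for each kind of enzyme. The coding bases in these windows are given for each gene. They are printed 5′ to 3′ on the gene's own strand, 27 bases each, read from the GENCODE transcripts with GRCm38 coordinates, and capitals mark the codon of the catalytic residue.
Ctsa: ctgacaggagagAGCtatgctggcatc
Ctsd: acagtcgtctttGATactggctcctct
Ctsb: tcctgcggctctTGTtgggcatttggg
Ctsc: tcttgtggaagcTGCtactcatttgcc
Ctsh: gcctgtggcagcTGCtggactttctct
Ctsk: cagtgtggttccTGTtgggctttcagc
Ctsl: cagtgcgggtctTGTtgggcgtttagc
Ctss: tcttgtggtgccTGCtgggctttcagt
Ctsz: tactgtggttccTGCtgggcccacggc
The codon is a serine codon in Ctsa, the first of the aspartate codons of the catalytic pair in Ctsd, and a cysteine codon in the other 7. The search pattern required these residues, so this division of codons was set beforehand. Among the 7 cysteine cathepsins, 8 of the 27 bases were identical in every gene, and the 21 pairs shared between 12 and 22 bases. The pattern also required residues next to the cysteine, so much of the identity common to all 7 was set by the search. The closest pair was Ctsk and Ctsl with 22 identical bases, followed by Ctsk and Ctss with 21. In Ctsb the window spans the junction of exons 4 and 5. Reads of 150 nt cover far more than such a window, but the method used for counting divides reads that match several genes, so all values are estimates.

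The genes lie on 6 chromosomes of GRCm38. Ctsa (chr2:164832873-164841032) and Ctsz (chr2:174427493-174439039) are on chromosome 2, Ctsk (chr3:95499256-95509362) and Ctss (chr3:95526786-95556403) are neighbours on chromosome 3, and Ctsc (chr7:88278085-88310888) and Ctsd (chr7:142375911-142388038) are on chromosome 7. Ctsh is at chr9:90054152-90076089, Ctsl at chr13:64359337-64370890 and Ctsb at chr14:63122462-63145923. Ctsd, Ctsl and Ctsz are on the minus strand and the other 6 on the plus strand. Some annotated genes overlap them. Pltp and Neurl2 overlap Ctsa on the opposite strand and held counts equal to 5.57% and 1.21% of those of Ctsa, Nelfcd overlaps Ctsz by 10 bases, and Fdft1 overlaps Ctsb by 774 bases on the opposite strand with 1.48% of its counts. Gm49369 overlaps Ctsd by 6757 bases on the same strand, so strand cannot separate the 2, and held counts equal to 0.0866% of those of Ctsd. The library kit keeps strand, but whether the counting used it is not given in the sources used here.

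With doxycycline, 3 cathepsins fell in shDis3l2 relative to shNS by edgeR's quasi-likelihood test: Ctsb, the cysteine protease with the highest count in shNS, Ctsd, the aspartic protease, and Ctsk, the collagen-cutting protease of osteoclasts. edgeR called 0 of the 9 higher, where Ctsc alone had an unadjusted p under 0.05. Of all 13752 genes tested 6.14% were called, 4.01% lower and 2.13% higher. Altogether 8 of the 9 had a negative log2 fold change and 8 had an unadjusted p under 0.05, which 20.8% of all genes tested had, and their median log2 fold change was -0.86, against -0.00 for all genes tested. DESeq2 called 6 of the 9, namely Ctsa, Ctsb, Ctsd, Ctsk and Ctss lower and Ctsc higher, beside 11.1% of the genes it tested.

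**Figure D1:**
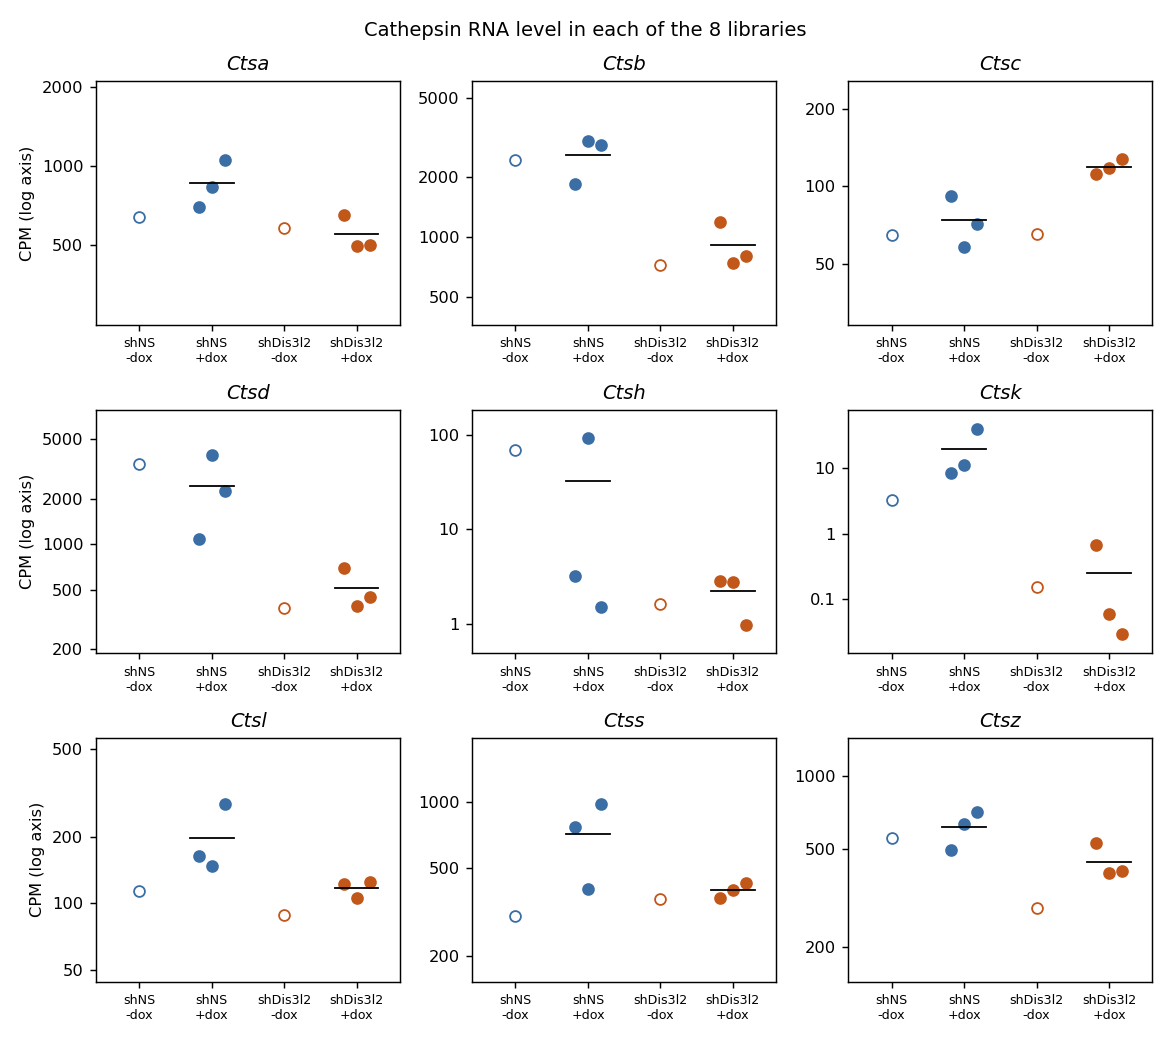
Level of each cathepsin in TMM-normalized CPM on a log axis, 1 panel per gene, for shNS (blue) and shDis3l2 (orange) libraries without doxycycline (open points) and with it (filled points, replicates 1 to 3 from left to right). The black line is the mean of the 3 libraries; Ctsb, Ctsd and Ctsk separate by line with and without the drug, and Ctsh is high in 1 of the 3 shNS libraries with the drug and in the drug-free shNS library.

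Ctsb stood at 1855, 3031 and 2888 CPM in the 3 shNS libraries with the drug and at 1185, 744 and 803 CPM in the 3 shDis3l2 libraries. Every shDis3l2 library lay below every shNS library, with replicate 1 of each line closest to the other line. The mean of shDis3l2, 911 ± 240 CPM (SD, n = 3), was 35.1% of that of shNS, 2591 ± 642 CPM (SD, n = 3). On the log2 scale shDis3l2 was lower by a fitted -1.51 (SE 0.26), with an adjusted p of 0.0205 in edgeR. The call was lost without replicate 2 of shDis3l2 (adjusted p = 0.102) and without replicate 3 of shDis3l2 (0.0893), and the log2 fold change stayed between -1.74 and -1.37 over the 6 fits that each left out 1 library. In bulk RNA, fewer cells with a transcript and less of it per cell cannot be told apart, here and below. The summed level of the 10 macrophage markers ran from 8000 to 11961 CPM in shNS and from 7020 to 9796 CPM in shDis3l2 with the drug, and its part in the cathepsin differences was not tested.

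Ctsd stood at 1093, 3961 and 2258 CPM in shNS and at 700, 391 and 447 CPM in shDis3l2 with the drug. The groups did not overlap, but the shNS libraries differed among themselves by 3.63-fold, more than for Ctsb (1.63-fold). The shDis3l2 mean of 513 ± 165 CPM (SD, n = 3) lay 4.75-fold below the shNS mean of 2437 ± 1442 CPM (SD, n = 3). edgeR put the log2 fold change at -2.25 (SE 0.49, adjusted p = 0.0463). Without replicate 2 of shNS, the highest library, the log2 fold change was -1.70 (adjusted p = 0.0352). The call was lost without replicate 3 of shNS (0.0865) and without replicate 1, 2 or 3 of shDis3l2 (0.0902, 0.195 and 0.188). It was also lost with no filter on low counts (0.0844).

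Ctsk was low in this line even in shNS, at 8.47, 11.4 and 39.6 CPM with the drug, and stood at 0.66, 0.06 and 0.03 CPM in shDis3l2. In counts these were 269, 388 and 1376 in shNS against 29, 2 and 1 in shDis3l2, so that the lowest shNS library held more than every shDis3l2 library. The mean in shDis3l2, 0.25 ± 0.36 CPM (SD, n = 3), was 1.26% of the mean in shNS, 19.8 ± 17.2 CPM (SD, n = 3). edgeR put the log2 fold change at -6.18 (SE 1.16, adjusted p = 0.0359), and its size moved with single libraries, to -8.69 without replicate 1 of shDis3l2 and to -5.21 without replicate 3 of shNS. The call was lost without replicate 3 of shNS (adjusted p = 0.0508) and without replicate 2 or 3 of shDis3l2 (0.169 and 0.134), and with no filter on low counts (0.116).

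Ctsc was the 1 cathepsin with a positive difference. Cathepsin C activates the serine proteases of granules in neutrophils, mast cells and cytotoxic lymphocytes by trimming their amino ends. It stood at 91.7, 58.0 and 71.4 CPM in shNS and at 111, 118 and 128 CPM in shDis3l2 with the drug, without overlap. The shDis3l2 mean of 119 ± 8.32 CPM (SD, n = 3) was 1.62-fold the shNS mean of 73.7 ± 16.9 CPM (SD, n = 3). The log2 fold change of 0.69 (SE 0.18) did not pass the threshold (edgeR adjusted p = 0.0749). It did without replicate 1 of shNS, the highest shNS library (0.91, adjusted p = 0.0226).

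Ctsa stood at 698, 827 and 1053 CPM in shNS and at 648, 494 and 500 CPM in shDis3l2 with the drug, and the groups did not overlap. edgeR put the log2 fold change at -0.65 (SE 0.20, adjusted p = 0.113). Ctsl, whose product cuts the invariant chain of MHC class II molecules in some antigen-presenting cells, stood at 164, 147 and 281 CPM in shNS and at 122, 106 and 124 CPM in shDis3l2. These groups did not overlap either, although replicate 3 of shNS alone lay well above the rest, and edgeR put the log2 fold change at -0.75 (SE 0.25, adjusted p = 0.137).

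Ctss encodes the cathepsin that completes invariant chain removal in macrophages and dendritic cells. It stood at 775, 401 and 985 CPM in shNS and at 366, 397 and 427 CPM in shDis3l2 with the drug. Replicate 2 of shNS lay within the shDis3l2 range, and edgeR's log2 fold change of -0.86 (SE 0.31) missed the threshold (adjusted p = 0.165). Without that library it was -1.15 (adjusted p = 0.0127). Ctsz stood at 497, 637 and 711 CPM in shNS and at 529, 400 and 407 CPM in shDis3l2, with replicate 1 of shDis3l2 above the lowest shNS library and a log2 fold change of -0.46 (SE 0.19, edgeR adjusted p = 0.218).

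Ctsh varied most of the 9 within shNS with the drug, by the coefficient of variation, whereas within shDis3l2 Ctsk did. It stood at 3.24, 92.6 and 1.50 CPM in shNS and at 2.84, 2.80 and 0.98 CPM in shDis3l2 with the drug. Only replicate 2 of shNS was high among these 6 libraries, and the other 2 shNS libraries lay near the shDis3l2 libraries. The log2 fold change of -3.87 (SE 1.66, edgeR adjusted p = 0.263) did not pass the threshold and became -0.10 without replicate 2 of shNS (adjusted p = 0.961). DESeq2 gave Ctsh no adjusted p.

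The libraries of the 2 lines with the drug did not overlap for 6 of the 9 cathepsins, 5 with shDis3l2 lower (Ctsa, Ctsb, Ctsd, Ctsk and Ctsl) and 1 with it higher (Ctsc). Among all 13752 genes tested, 27.7% did not overlap, 14.6% with shDis3l2 lower and 13.2% with it higher. The two-sided exact permutation test gave p = 0.1 for each of these 6, the smallest p that 3 libraries against 3 allow, 0.2 for Ctss and Ctsz, and 0.4 for Ctsh. The shNS libraries varied more than the shDis3l2 libraries in 7 of the 9 genes, by the coefficient of variation, with Ctsb and Ctsk as the exceptions. For Ctss it was 41.1% in shNS and 7.67% in shDis3l2, for Ctsl 36.9% and 8.43%, and for Ctsc 23.0% and 6.98%.

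Without doxycycline the lines already differed in 4 cathepsins by at least 2-fold, all lower in shDis3l2, beside 20.9% of 15250 genes that differed by that much in either direction, 11.5% lower and 9.4% higher. With 1 library per line no test was made, and the intervals below cover counting error only. Ctsb stood at 2436 CPM in shNS and 725 CPM in shDis3l2, which is 3.36-fold lower (95% interval 3.31 to 3.40), and Ctsd at 3422 and 377 CPM, which is 9.09-fold lower (8.94 to 9.25). Ctsh stood at 68.8 and 1.60 CPM, which is 42.9-fold lower (33.5 to 56.1), and Ctsk at 3.32 and 0.15 CPM, from 121 and 6 counts, which is 21.8-fold lower (9.72 to 60.5). With the drug, Ctsh was also high in replicate 2 of shNS (92.6 CPM), but replicates 1 and 3 held 3.24 and 1.50 CPM. The drug-free Ctsh difference therefore does not stand for every shNS library. Ctsz was lower at 289 CPM against 558 CPM, 1.93-fold (1.89 to 1.98).

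The other 4 were close between the drug-free lines. For Ctsa, at 638 and 577 CPM, the ratio of shDis3l2 to shNS was 0.905 (95% interval 0.889 to 0.922). Ctsl stood at 114 and 88.0 CPM, a ratio of 0.772 (0.738 to 0.808). Ctsc stood at 64.7 and 65.3 CPM, a ratio of 1.01 (0.954 to 1.07), and Ctss at 304 and 362 CPM, a ratio of 1.19 (1.16 to 1.22). The median log2 ratio of the 9 genes was -0.95, against -0.00 for all 15250 genes. In the same 2 libraries Dis3l2 stood at 29.7 and 28.6 CPM, so the lower Ctsb, Ctsd, Ctsh and Ctsk of the drug-free shDis3l2 library came with a Dis3l2 level close to that of shNS. An effect of the lower Dis3l2 and a difference between the lines themselves cannot be told apart for these genes from the comparison with the drug alone. For Ctsh the shNS libraries with the drug also differed among themselves, from 1.50 to 92.6 CPM.

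**Figure D2:**
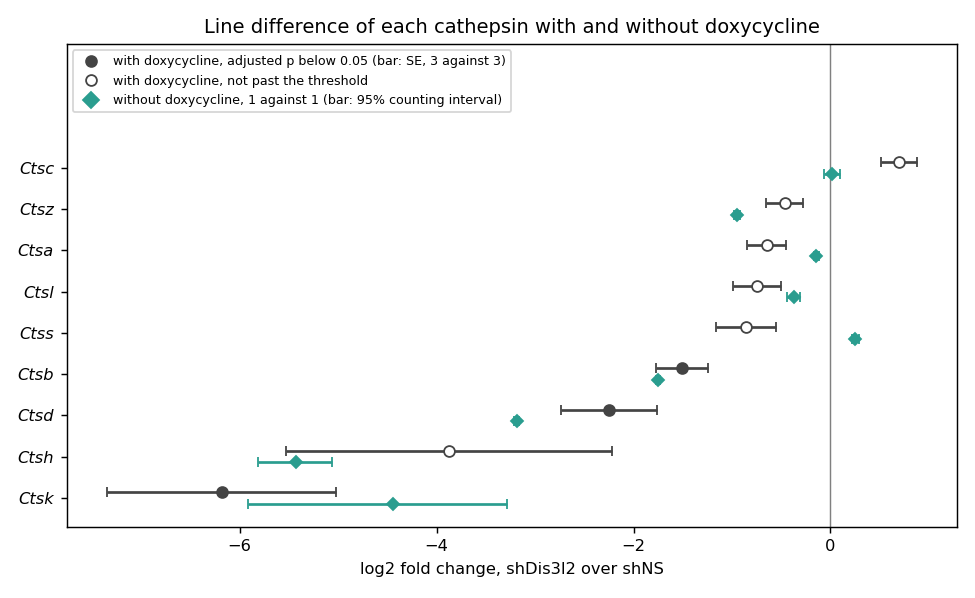
Log2 fold change of shDis3l2 over shNS for each cathepsin, with doxycycline (circles, 3 against 3 libraries) and without it (diamonds, 1 library against 1). Circles are filled where edgeR's adjusted p is below 0.05, and their bars are the SE worked out from edgeR's test statistic. Bars of diamonds are the 95% counting interval. Ctsb, Ctsd, Ctsh and Ctsk lie below -1 in both, whereas Ctss lies at 0.25 without the drug and -0.86 with it, and Ctsc at 0.01 and 0.69. Without replicate 2 of shNS the value of Ctsh with the drug was -0.10.

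The drug itself was then compared with no drug within each line, in a fit of all 8 libraries as 4 groups in which the lone drug-free libraries were assumed to vary like the others. edgeR called 0 of the 9 cathepsins in shNS and 0 in shDis3l2, as for all 15250 genes, of which 0% were called in either line. Dis3l2 itself was not called in shDis3l2, although it stood at 28.6 CPM without the drug and at 12.0, 13.5 and 14.9 CPM with it. With 1 drug-free library per line, the absence of a call therefore does not show that the drug had no effect. Unadjusted, 1 cathepsin in each line had p under 0.05, beside 4.24% and 3.3% of all genes, and DESeq2 called 0 cathepsins in either line, beside 0.562% and 0.318% of the genes it tested. In shNS the gene was Ctss, at 304 CPM without the drug and 401 to 985 CPM with it, a log2 difference of 1.25 (SE 0.47, edgeR adjusted p = 0.99). In shDis3l2 it was Ctsc, at 65.3 CPM without the drug and 111 to 128 CPM with it, a log2 difference of 0.87 (SE 0.27, edgeR adjusted p = 1).

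The other drug differences did not pass the threshold either (edgeR adjusted p of at least 0.99). In shNS the log2 difference was 0.79 (SE 0.37) for Ctsl and 0.43 (SE 0.29) for Ctsa, and in shDis3l2 it was 0.63 (SE 0.28) for Ctsz. For Ctsb the log2 difference was 0.09 (SE 0.37) in shNS and 0.33 (SE 0.38) in shDis3l2, and for Ctsd -0.49 (SE 0.65) and 0.45 (SE 0.68). For Ctsk it was 2.58 (SE 1.56) in shNS, where all 3 libraries with the drug lay above the drug-free one, and 0.79 (SE 1.90) in shDis3l2. Leaving out replicate 2 of shNS changed the picture for Ctsh, from -1.08 (SE 2.03) to -4.88 (edgeR adjusted p = 0.0100), and for Ctss, to 1.51 (edgeR adjusted p = 0.0276). In that fit the remaining shNS libraries with the drug held 3.24 and 1.50 CPM of Ctsh against 68.8 CPM in the drug-free library.

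The difference between the drug effects of the lines was not past the threshold for any of the 9 by edgeR (adjusted p = 1.00 for each), nor for any of the 15250 genes (0%). None of the 9 had an unadjusted p under 0.05 (3.78% of all genes did), and DESeq2 called 0 of the 9, beside 0.264% of the genes it tested. The largest differences by size were -1.79 (SE 2.44) for Ctsk, 1.55 (SE 3.19) for Ctsh and -1.11 (SE 0.62) for Ctss, on the log2 scale. The SE of this difference ran from 0.37 (Ctsc) to 3.19 (Ctsh), with 1 drug-free library per line. Differences larger than their SE, such as 0.68 for Ctsc, did not pass either. The absence of a call therefore does not show that the drug effects of the lines were alike.

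**Figure D3:**
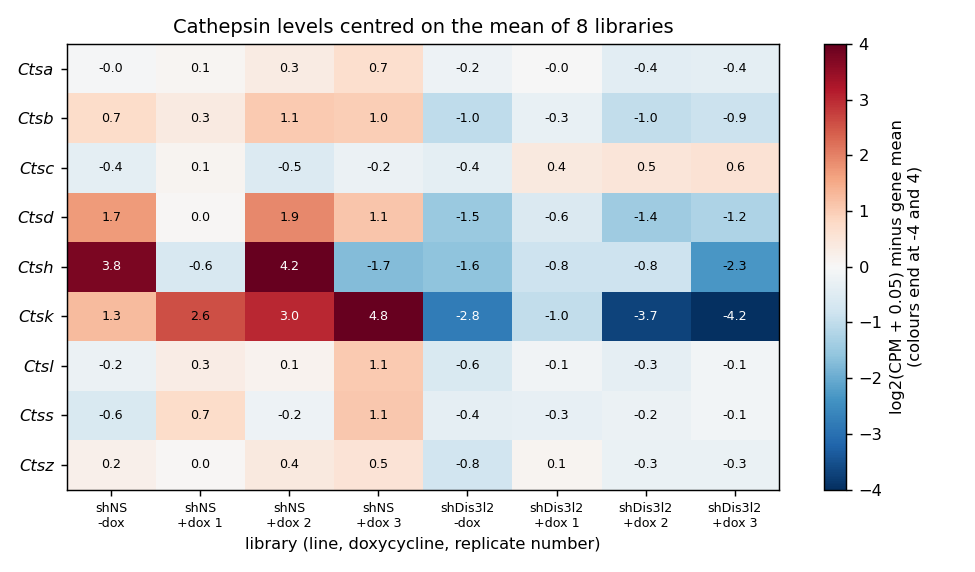
Level of each cathepsin as log2(CPM + 0.05) minus the gene's mean over the 8 libraries, 1 column per library; red is above the gene's mean and blue below it, and the printed number is the value. Ctsb and Ctsd split the shNS from the shDis3l2 columns, and Ctsh is high only in shNS without the drug and in replicate 2 of shNS with it.

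Levels of different genes can be compared only per length, so CPM was divided by the length of annotated exon in kilobases. In shNS with the drug Ctsd led with 1037 ± 613 CPM per kb (SD, n = 3), then Ctss with 530 ± 218, Ctsb with 428 ± 106 and Ctsz with 427 ± 75.6 CPM per kb. Neighbours among these 4 overlapped in range and were not separated. Ctsa followed with 182 ± 38.1 CPM per kb and Ctsl with 30.4 ± 11.2, and neither overlapped the gene above it. Ctsk (13.1 ± 11.4), Ctsc (12.7 ± 2.92) and Ctsh (7.21 ± 11.6 CPM per kb) came last with ranges that overlapped their neighbours. By mean level per kb over all 8 libraries, which pools the lines and so does not give the order within either, Ctsd ranked at 30, Ctss at 79, Ctsz at 84 and Ctsb at 120 among 14491 protein-coding genes with a count, whereas Ctsl ranked at 1872, Ctsc at 2835, Ctsk at 6537 and Ctsh at 6835.

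In shDis3l2 with the drug the order of the abundant genes was another. Ctsz led with 309 ± 50.2 CPM per kb (SD, n = 3), followed by Ctss with 292 ± 22.4, Ctsd with 218 ± 70.1, Ctsb with 151 ± 39.6 and Ctsa with 116 ± 18.4 CPM per kb, and all neighbours in this series overlapped in range. Ctsc (20.5 ± 1.43 CPM per kb) stood above Ctsl (18.1 ± 1.52) without overlap, though by a narrow gap, with the lowest Ctsc library at 19.17 and the highest Ctsl library at 19.15 CPM per kb. Ctsh (0.49 ± 0.24) and Ctsk (0.17 ± 0.24 CPM per kb) were last. Dividing by the longest coding transcript instead placed Ctsb second in shNS, with 546 CPM per kb, and raised Ctsa to 236, Ctsc to 22.9 and Ctsh to 20.1 CPM per kb.

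**Figure D4:**
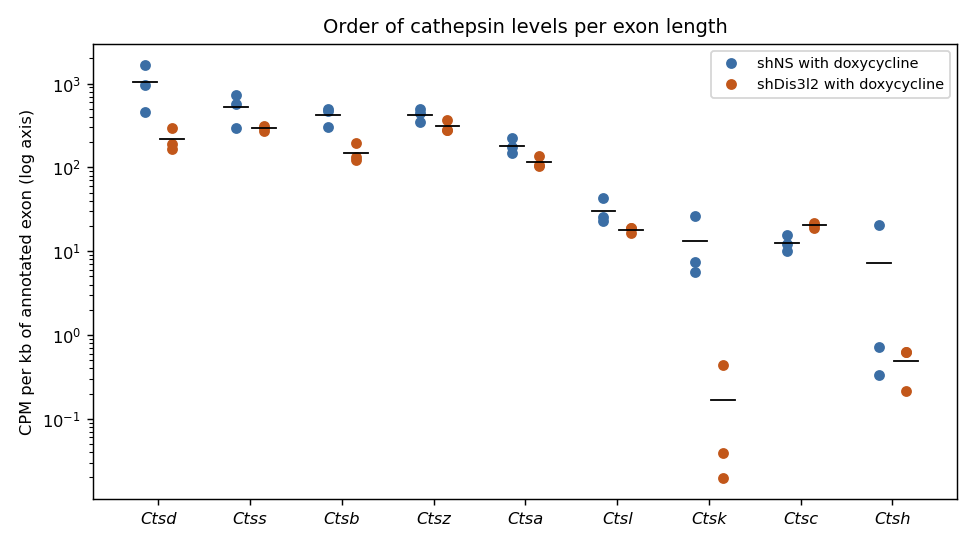
Level of each cathepsin per kilobase of annotated exon (CPM per kb, log axis) in the 3 shNS (blue) and 3 shDis3l2 (orange) libraries with doxycycline; lines are group means. Ctsd leads in shNS with a mean of 1037 CPM per kb, and Ctsz leads in shDis3l2 with 309 CPM per kb.

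Together the 9 genes held 0.543, 0.876 and 0.770% of all counts in the shNS libraries with the drug and 0.352, 0.276 and 0.298% in the shDis3l2 libraries. The drug-free libraries held 0.756% (shNS) and 0.257% (shDis3l2). Ctsb and Ctsd made up 56.9, 76.3 and 62.1% of the cathepsin counts in shNS with the drug and 51.5, 42.8 and 44.1% in shDis3l2. The ratio of Ctsd to Ctsb per kb was 1.52, 3.36 and 2.01 in the shNS libraries with the drug and 1.52, 1.35 and 1.43 in the shDis3l2 libraries. It was 3.62 and 1.34 in the drug-free shNS and shDis3l2 libraries, so replicate 2 and the drug-free library of shNS had the highest ratios, and replicate 1 of shNS had the same ratio as replicate 1 of shDis3l2.

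The annotation holds 17 further cathepsin genes and pseudogenes, 12 of them on chromosome 13, where rodents carry a cluster of placental cathepsins. Of the 17, 14 had 0 counts in all 8 libraries, among them Ctsg, the granule protease of neutrophils, and Ctsw. The 3 that were detected are Ctse, an aspartic protease, at 6.50 to 25.7 CPM, and the cysteine proteases Ctsf, at 36.1 to 66.9 CPM, and Ctso, at 12.6 to 23.8 CPM. None of these 3 passed the threshold between the lines with the drug.

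Gene lists of the same pathway, 127 genes in 8 lists, were set beside the cathepsins, and 110 of the genes could be tested. Of these 18 fell and 0 rose in shDis3l2 with the drug by edgeR, and 81 had a negative log2 fold change, with a median of -0.30 against -0.00 for all genes tested. Of all 13752 genes tested 4.01% were called lower and 2.13% higher, and a list with 1 gene called is close to that share. The number fell to 9, 1 and 4 without replicate 1, 2 or 3 of shDis3l2, and reached 24 at most with 1 library left out. Of the 18, only Sort1 was called in all 6 of these fits. Without the drug, with 1 library per line, the list medians of the log2 ratio ran from -0.94 (cathepsin inhibitors) to 0.18 (osteoclast genes). For these lists, too, an effect of the lower Dis3l2 and a difference between the lines cannot be told apart from the comparison with the drug alone.

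Among receptors and enzymes that sort lysosomal precursors or give them their mannose-6-phosphate tag, 4 of 18 fell and 0 rose, with a median log2 fold change of -0.24. Sort1, the sortilin receptor, stood at 43.0, 42.0 and 30.8 CPM in shNS and at 1.28, 1.08 and 1.89 CPM in shDis3l2. Its groups did not overlap, and edgeR's log2 fold change was -4.77 (SE 0.27, adjusted p = 4.86e-04). Without the drug Sort1 stood at 42.7 CPM in shNS and 1.37 CPM in shDis3l2. Igf2r, the large mannose-6-phosphate receptor, stood at 233, 357 and 467 CPM in shNS and at 13.6, 14.7 and 57.5 CPM in shDis3l2 (log2 fold change -3.62, edgeR adjusted p = 0.0338). M6pr, the small one, stood at 291, 329 and 487 CPM in shNS and at 387, 322 and 338 CPM in shDis3l2, with overlapping groups (-0.08, adjusted p = 0.887). It was chosen after its values were seen, as the partner of Igf2r. The other 2 that fell were Gga2, an adaptor of the trans-Golgi network (-1.18, edgeR adjusted p = 0.0125), and Lrp1, an endocytic receptor (-1.22, edgeR adjusted p = 0.0234). The count of this list was 2 without replicate 3 of shNS or replicate 1 or 3 of shDis3l2 and 1 without replicate 2 of shDis3l2.

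The vacuolar ATPase acidifies the lysosome, and 5 of its 18 listed subunits fell and 0 rose. Its list had the lowest median of the 8, -0.64, and 17 of the 18 log2 fold changes were negative. The median log2 ratio of the list without the drug was -0.57. Atp6v1c1 stood at 138, 195 and 225 CPM in shNS and at 66.7, 69.8 and 73.1 CPM in shDis3l2 (-1.41, edgeR adjusted p = 0.00913). Atp6v0d1 stood at 96.1, 153 and 121 CPM in shNS and at 69.3, 55.4 and 59.6 CPM in shDis3l2 (edgeR adjusted p = 0.0272). Atp6v1d (-1.05, edgeR adjusted p = 0.0212) and Atp6v1b2 (-0.59, 0.0396) also fell. The count was 0 without replicate 2 of shDis3l2, 1 without replicate 1 or replicate 3 of shDis3l2, 2 without replicate 3 of shNS and 9 without replicate 1 of shNS.

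Of the proteins that activate cathepsins or work beside them in the lysosome, 3 of 13 fell and 0 rose, with a median of -0.34. Psap, the precursor of the saposins, stood at 977, 1044 and 1727 CPM in shNS and at 467, 504 and 512 CPM in shDis3l2 (-1.33, edgeR adjusted p = 0.0209). Tmem106b, a lysosomal membrane protein, also fell (-0.65, edgeR adjusted p = 0.0463). The count was 1 without replicate 2 or 3 of shNS and 0 without replicate 2 or 3 of shDis3l2. Of the other lysosomal peptidases 1 of 12 tested fell, Tpp1, a serine tripeptidyl peptidase, at 218, 272 and 240 CPM in shNS and 122, 103 and 107 CPM in shDis3l2 (-1.13, edgeR adjusted p = 0.00715), with a list median of -0.17. The count of this list was 0 without replicate 2 of shDis3l2 and 2 without replicate 1 of shDis3l2 or replicate 2 of shNS.

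The cystatins and other inhibitors of cathepsins had 6 of 15 genes above the filter, of which none passed the threshold by edgeR, with a median of -0.28. The smallest p was that of Cst7, whose product cystatin F inhibits cathepsin C and others inside the lysosome. It stood at 1.67, 14.2 and 6.02 CPM in shNS and at 0.85, 0.88 and 0.56 CPM in shDis3l2 (-3.25, edgeR adjusted p = 0.0563), without overlap. DESeq2 called 3 genes of this list, beside 11.1% of all genes it tested. Counts in this list differed by the library left out, with 3 called without replicate 1 of shNS and 1 without replicate 2 of shNS.

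Among the MiT/TFE transcription factors, which switch on many lysosomal genes, and their regulators, 3 of 16 tested fell and 0 rose, with a median of -0.15. Tfec, a family member of the macrophage lineage, stood at 8.97, 1.99 and 11.9 CPM in shNS and at 0 counts in all 3 shDis3l2 libraries with the drug and in the one without it. Against a floor of 3 counts per library it was at least 93.2-fold lower with the drug (edgeR adjusted p = 0.0216). Fnip1 (-0.91, edgeR adjusted p = 0.0118) and Fnip2 (-1.36, 0.0379), whose products bind folliculin, also fell. Tfeb (0.41, edgeR adjusted p = 0.438), Mitf (0.37, 0.474) and Tfe3 (-0.12, 0.697), named after their values were seen as the best known of the family, did not pass. The call count of this list was 1 without replicate 1 of either line and 0 without replicate 2 or replicate 3 of shDis3l2.

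In the list of antigen processing, 1 of 16 fell, Ciita, the master activator of MHC class II genes, at 17.2, 29.4 and 1.76 CPM in shNS and 0.34, 0.18 and 0.27 CPM in shDis3l2 (-5.91, edgeR adjusted p = 0.0344), with a list median of -0.27. Among osteoclast genes, 1 of 11 tested fell, Ostm1, a chloride transporter partner needed in osteoclast lysosomes, at 53.4, 59.6 and 52.0 CPM in shNS and 31.5, 32.0 and 34.2 CPM in shDis3l2 (-0.75, edgeR adjusted p = 0.0157), with a list median of -0.17. The first count was 0 without replicate 1 of shNS or any of the 3 shDis3l2 libraries and 5 without replicate 3 of shNS. The second was 0 without replicate 2 or 3 of shDis3l2, and 3, 2 and 4 without replicate 1, 2 or 3 of shNS. DESeq2 called 5 genes of the first list and 6 of the second, beside 11.1% of all genes it tested.

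**Figure D5:**
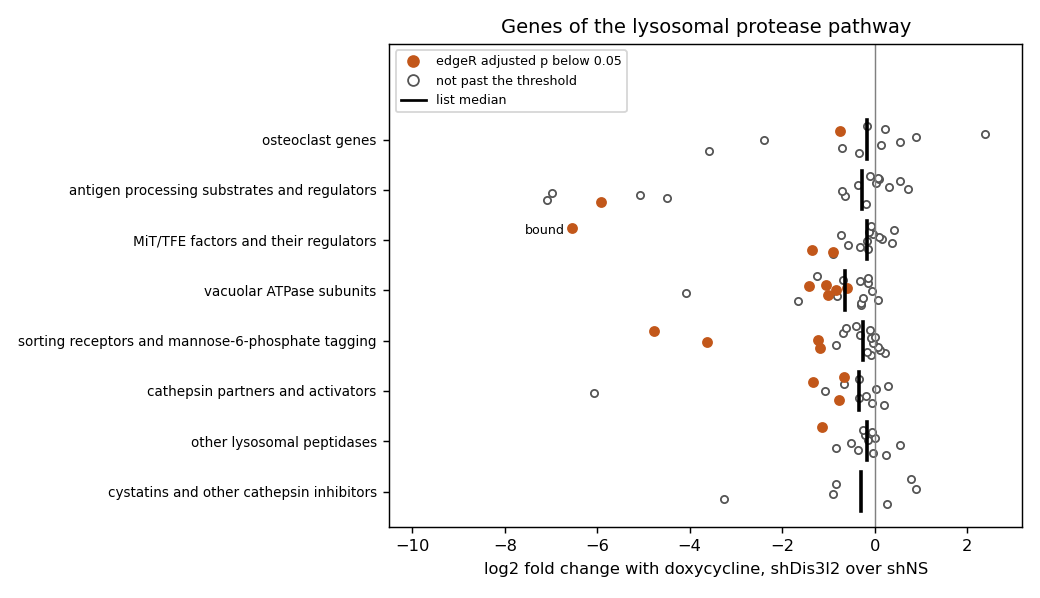
Log2 fold change of shDis3l2 over shNS with doxycycline for the 110 tested genes of 8 lists, 1 point per gene; filled points have an edgeR adjusted p below 0.05 and black bars are list medians. Tfec, with 0 counts in shDis3l2, is drawn at the bound set by a floor of 3 counts per library; all filled points lie left of 0, and the vacuolar ATPase list has the lowest median.

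Genes with a pattern most like that of each called cathepsin were found by the root mean square difference of log2(CPM + 0.05), centred per gene, over the 8 libraries and 11699 other genes with a mean count of at least 50. This is a description with no test, and the libraries are the same for every gene. Closest to Ctsb were Zfand2a (0.17), Igfbp4 (0.19) and Arl11 (0.19). Igfbp4, a binding protein of insulin-like growth factors, stood at 136, 207 and 193 CPM in shNS and at 74.4, 65.1 and 61.9 CPM in shDis3l2 with the drug. Closest to Ctsd were Pld3 (0.16), Tcn2 (0.18) and Itsn1 (0.24). Pld3, a nuclease of the lysosome, stood at 67.0, 240 and 138 CPM in shNS and at 47.1, 27.5 and 36.6 CPM in shDis3l2, highest in the same shNS library as Ctsd. Closest to Ctsk were Hpse (0.71), which encodes heparanase, Plxdc1 (0.79) and Stc2 (0.93), at greater distances than for Ctsb and Ctsd.

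The genes next to the called cathepsins were read for context. For Ctsb these were Ints6, Wdfy2, Fdft1 and Neil2, of which Neil2 was the 1 past the threshold, and it went the other way, with 0 counts in the shNS libraries and 0.89, 0.29 and 0.50 CPM in shDis3l2 (edgeR adjusted p = 0.0254). Fdft1, which overlaps the end of Ctsb, stood at 43.4, 20.5 and 26.8 CPM in shNS and at 41.8, 14.5 and 14.3 CPM in shDis3l2 (adjusted p = 0.758). Beside Ctsd, Syt8 fell (-1.99, edgeR adjusted p = 0.0211) at 2.31 CPM or less, whereas Tnni2 (0.19, 0.748) did not pass. On the other side Gm45630 and Gm49369, which overlaps Ctsd, did not pass. Beside Ctsk, Arnt (-0.29, edgeR adjusted p = 0.355), which ends 2016 bases before it, did not pass, nor did Ctss, which starts 17424 bases after it.

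Promoter sequence was available for 7 of the 9 genes, 8 promoters in all, in RefSeq's GRCm38.p6 table. Those of Ctsb and Ctsh were missing there and were not searched. The 250 bases before each start were searched for CACGTG, the letters at the core of the element that MiT/TFE factors bind and a palindrome that reads alike on both strands, and for TTTCNNTTTC on both strands, the letters of an interferon response element. CACGTG was in 6.02% of all 32851 promoters and TTTCNNTTTC in 2.98%. The matches are shown 5′ to 3′ on the gene's strand with the motif in capitals, since they are the places in these promoters that a reader would look at for lysosomal gene regulation. The Ctsa match is at chr2:164833749-164833772 on the plus strand, 12 bases before the start. The 2 Ctsd matches are at chr7:142387908-142387937 and chr7:142388055-142388077 on the minus strand, 98 and 245 bases before the start. The Ctsl match is at chr13:64370739-64370768 on the minus strand, 236 bases before the start, and the Ctss match is at chr3:95526755-95526784, with the letters on the strand opposite to the gene, 21 bases before the start.
Ctsa: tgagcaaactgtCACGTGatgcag
Ctsd, nearer: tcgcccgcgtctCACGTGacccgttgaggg
Ctsd, farther: tccccCACGTGacctgtatccag
Ctsl: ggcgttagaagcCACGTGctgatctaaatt
Ctss: gtctttaaatGAAACCGAAAtgaaagttca
The Ctsa match, the nearer Ctsd match and the Ctsl match lie inside the gene's span in GENCODE, which starts upstream of the RefSeq start used here. Of the genes with CACGTG, Ctsd fell in shDis3l2 and Ctsa and Ctsl did not pass the threshold. Ctsk fell and had neither motif in its window. Ctsb also fell, but its promoter was not searched. A match is a description of letters, and no binding was measured.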

How the data were processed

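Total RNA was sequenced in 8 libraries of RAW264.7 cells. Per the labels' protocols, ribosomal RNA was removed, strand was kept and reads were 150 nt pairs. The submitters' processing notes name cutadapt, RSEM, STAR 2.7, and the builds mm10 and GRCm38. Not given in the sources used here are the strand setting, the annotation release and other tool versions. Expected counts per gene, not normalized, are what the authors deposited. Rounding to whole numbers changed between 4.68 and 5.24% of values per library, and genes were filtered with filterByExpr (minimum count 10). Tests were edgeR 4.0.16's quasi-likelihood test (R 4.3.3, robust, TMM, two-sided, Benjamini-Hochberg over all genes, threshold 0.05) on the 6 libraries with doxycycline, and on 8 libraries as 4 groups for the drug. The SE given with a log2 fold change was worked out from edgeR's test statistic F, as the size of the change divided by the square root of F. It is approximate, above all for genes with few counts. DESeq2 1.42.0 was an alternative, and edgeR's test was tried on simulated data. Intervals cover counting error only. No replicate pair agreed within counting noise (chi-square per gene at least 17.0). Named genes are the 9 members, Dis3l2, other cathepsins, up to 4 called genes per list with the smallest adjusted p (the smallest p where none was called), 3 genes of most similar pattern and 2 tested neighbours on each side of each called cathepsin. Members and lists were chosen with earlier results of these data known. 1 called gene of the lists is counted but not reported here by name.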

Additional observations from a re-analysis of the deposited data

How the results depend on the processing

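The 3 cathepsins called between the lines with doxycycline were 3 again with DESeq2's size factors and with all 8 libraries in an additive fit, 1 (Ctsb) with no low-count filter, 6 with DESeq2, 0 with the replicate number as a block, and 0 to 4 with 1 library left out. All genes called (845) became 1789 with DESeq2, 397 with the block, 1488 in the additive fit and 203 to 1157 with 1 library left out. The 18 called genes of the 8 lists became 42 with DESeq2, 10 with the block, 37 in the additive fit and 1 to 24 with 1 library left out. The pairing was not borne out, since same-numbered libraries had correlations of -0.122, 0.0208 and -0.00601 between their deviations from the group means. For the drug in shNS 0 to 2 cathepsins were called with 1 library left out, and 0 in shDis3l2 and for the difference between lines. The log2 drug difference of Ctsb in shNS ran from -0.059 without replicate 2 of shNS, through -0.01 without replicate 3, to 0.28 without replicate 1, and that of Ctsk in shDis3l2 from -1.71 without replicate 1 of shDis3l2 to 1.27 without replicate 3. The cause of these changes was not tested. Between the lines with the drug, no log2 fold change of the 9 cathepsins turned sign under the alternatives tried. Of these values 14 lost the call, 5 gained it and 80 were counted as unchanged. The 80 include the DESeq2 value of Ctsh, which had no adjusted p. Counts of 1 to 29 in shDis3l2 limit the size of the Ctsk change, and 1 library per line limits every drug-free value.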

Other observations

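Ctsh had its high levels in the drug-free shNS library and in replicate 2 of shNS with the drug, and other genes were high in the same 2 libraries. The pattern was chosen after the values were seen, so it is given as values with no test. Of the genes compared, Cpq, a lysosomal carboxypeptidase, was closest to Ctsh (root mean square difference 0.36 over the 8 libraries), at 8.46 CPM in replicate 2 of shNS and 8.40 CPM in the drug-free shNS library. It was at 0.29 CPM or less in the other 6 libraries. Selenop, which encodes a secreted selenium carrier (0.53), stood at 53.1 and 65.8 CPM in those 2 shNS libraries and between 0.81 and 4.23 CPM in the other 6. H2-Aa, an MHC class II chain whose peptide loading depends on cathepsins S and L, stood at 40.0 and 68.5 CPM in the same 2 libraries. It also stood at 13.7 CPM in replicate 1 of shNS, at 0.35 CPM in replicate 3 of shNS, and at 0.30 CPM or less in every shDis3l2 library, and its difference between the lines with the drug did not pass the threshold (log2 fold change -7.09, edgeR adjusted p = 0.0935).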
